A study of Homo sapiens with 4 samples.

Results

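The 10 genes described here are long noncoding RNAs of human breast cancer cells: MALAT1 and NEAT1, RNAs that stay in the nucleus, the snoRNA host genes GAS5, SNHG1, SNHG5, SNHG6, SNHG7 and SNHG8, the imprinted RNA H19, and the intergenic RNA LINC00173. They are 10 of the 23605 gene symbols in the tables, matched by symbol. The genes were chosen by measured values, most for being detected at a high level in these same libraries and LINC00173 for its difference with A7, so their differences are given as a description with no test. The choice does not make all of them abundant: the mean level ran from 1.33 for H19 to 3300 for MALAT1, in FPKM, a count of fragments set relative to both the length of the transcript and the depth of the library, so that levels can be compared between genes.

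RNA was sequenced from LCC9 cells, a tamoxifen-resistant line with wild-type estrogen receptor alpha. Both groups were kept for 24 h in medium free of phenol red with 5% charcoal-stripped serum, which is low in steroid hormones. One group received the vehicle DMSO (2 libraries) and the other A7, a compound that the labels describe as a mimetic of the tumour suppressor BRCA1 (2 libraries), and the series asks about IKKB, NF-kB and the estrogen receptor. The labels name neither a dose nor separate cultures, so any spread between 2 libraries may be technical. The line is 1 cell line, and no library of a second line or of untreated cells enters the comparison.

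Long noncoding RNAs act as RNA and not through a protein. MALAT1 gathers in nuclear speckles, bodies rich in splicing factors, and the long isoform of NEAT1 is the scaffold on which paraspeckles form. A snoRNA host gene carries small nucleolar RNAs in its introns. These guide the chemical modification of ribosomal RNA, while the spliced host RNA is often short-lived, because translating ribosomes expose it to nonsense-mediated decay. Many hosts begin with a run of pyrimidines, the terminal oligopyrimidine (TOP) tract that ribosomal protein mRNAs also carry. H19 is expressed from the maternal allele next to IGF2 and holds the microRNA MIR675.

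Promoter windows from RefSeq (GRCh38.p14) were matched by symbol for 8 of the 10 genes, giving 10 windows. NEAT1 was not matched, and no window of SNHG6 is used here. The following 60 bases, 45 before the annotated start and 15 from it, are shown for some of the starts that hold the features marked below. The matched windows of the hosts GAS5 and SNHG1 hold neither feature and are not shown. LINC00173 is shown because it had the widest difference of the 10. Capitals mark a TATA match 20 to 40 bases before the start and a TOP-like tract, a C followed by at least 4 further C or T that begins within 5 bases of the start.
SNHG5 (chr6:85678719-85678778, - strand): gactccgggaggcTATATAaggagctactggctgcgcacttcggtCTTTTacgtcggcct
SNHG7 (chr9:136728170-136728229, - strand): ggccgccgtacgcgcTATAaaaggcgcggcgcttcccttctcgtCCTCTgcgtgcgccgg
SNHG8 (chr4:118278717-118278776, + strand): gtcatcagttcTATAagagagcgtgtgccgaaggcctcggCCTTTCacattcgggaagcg
MALAT1 second start (chr11:65499000-65499059, + strand): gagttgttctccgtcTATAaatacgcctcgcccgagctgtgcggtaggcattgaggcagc
LINC00173 first start (chr12:116533377-116533436, + strand): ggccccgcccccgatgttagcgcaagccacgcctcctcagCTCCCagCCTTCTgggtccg

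SNHG5, SNHG7 and SNHG8 each hold both features, as the capitals show. The first MALAT1 start and both LINC00173 starts hold a TOP-like tract with no TATA, and the second MALAT1 start a TATA with no such tract. Neither feature was found at the single annotated start matched for each of GAS5, SNHG1 and H19. Other starts were not searched, so this does not show that these genes lack a TOP tract. Of all 35116 windows, 21.1% hold such a tract and 6.17% such a TATA. The TATA search was added after the windows had been seen. In the full windows of 300 bases, the core estrogen receptor site GGTCA, on either strand, was found for GAS5, SNHG1, SNHG7, SNHG8 and H19, against 37.4% of all windows. The full estrogen response element (GGTCA, any 3 bases, TGACC), held by 0.0570% of windows, and an NF-kB motif, held by 11.3%, were found in none of the 10 matched windows. These matches are letters in a window and say nothing of whether a factor binds there.

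The libraries held 8763 to 9102 genes at 1 FPKM or more. The sequencing depth, relative to vehicle replicate 1, was 0.975 in vehicle replicate 2, 1.85 in A7 replicate 1 and 1.42 in its second replicate, as read from the steps between low values. Transcript lengths give an absolute depth of roughly 2300000, 2200000, 4200000 and 3200000 fragments. For the whole transcriptome, the typical gene differed by 0.224 (log2) between the vehicle libraries, by 0.201 between the A7 libraries, and by 0.192 to 0.257 between libraries of different groups. All 12 luminal breast markers looked up were at a mean of 1 FPKM or more. Their sum was 77147 and 81045 scaled FPKM with vehicle and 36522 and 36029 with A7, and without TFF1, an estrogen-induced gene, it was 1418 and 1115 against 1211 and 950.2. The part of TFF1 in the levels of the other genes was not tested. The basal keratins KRT5, KRT14 and KRT17 were listed at 0 in every library. PTPRC, CD3E, CD14 and HBB, markers of blood cells, were also listed at 0 throughout, and the 8 leukocyte markers summed to between 7.42 and 8.80. That leukocyte sum came mostly from CD68, at 3.47 to 4.15, and HBA1, at 2.56 to 4.24. Fibroblast and endothelial markers (9 genes, of which PDGFRB and CDH5 were listed at 0 in every library) summed to 0.511 and 0.517 scaled FPKM in the vehicle libraries, 11.1 in A7 replicate 1 and 1.03 in A7 replicate 2. In A7 replicate 1 that sum came mostly from DCN, at 8.40. Values without that library are therefore given for those of the 10 RNAs whose groups stood apart.

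The order of the mean levels was MALAT1, SNHG8, SNHG6, GAS5, SNHG5, SNHG1, NEAT1, SNHG7, LINC00173 and H19. MALAT1 stood apart from every other member, since its lowest library, at 2798, lay above the highest library of SNHG8, at 575. Over the 4 libraries, the values of SNHG6 and GAS5 overlapped, as did those of SNHG1 and NEAT1, NEAT1 and SNHG7, SNHG7 and LINC00173, and LINC00173 and H19. SNHG8, SNHG6, SNHG5 and SNHG1 did not overlap with the gene next above them. The plot of levels by library shows these steps.

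**Figure D1:**
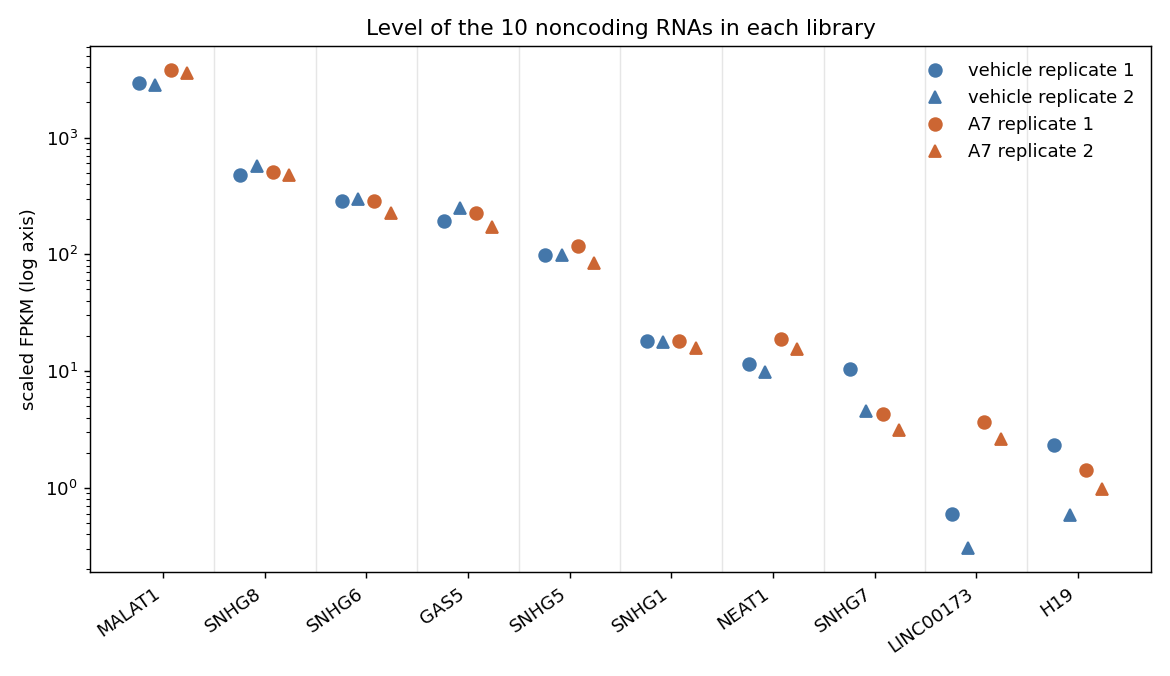
Scaled FPKM of each gene (log axis) in the 2 vehicle libraries (blue) and the 2 A7 libraries (orange), 1 point per library and genes in order of mean level. MALAT1 lies between 2798 and 3803 in every library, while H19 and LINC00173 lie at or below 3.65.

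Both nuclear RNAs were at a higher level with A7. Where the groups of a gene are said not to overlap, the share of all 8952 tested genes that did the same is the background: in 18.3% both A7 libraries lay above both vehicle libraries, and in 18.6% both lay below. MALAT1 measured 2935 and 2798 scaled FPKM with vehicle and reached 3803 and 3587 with A7. Both A7 values lay above both vehicle values. The A7 mean of 3695 ± 153 was 1.29 times the vehicle mean of 2866 ± 96.7 (SD, n = 2 each), and the fitted difference of log2(scaled FPKM + 1) was 0.37 (SE 0.11). MALAT1 ranked 68 and 80 among all 23605 symbols with vehicle and 54 and 59 with A7, and alone took 0.222%, 0.193%, 0.317% and 0.307% of the summed FPKM. Without A7 replicate 1 its log2 difference was 0.33.

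NEAT1, the paraspeckle scaffold, measured 11.4 and 9.85 scaled FPKM with vehicle and 18.8 and 15.4 with A7. Here too the groups did not overlap, although the level was far below that of MALAT1. The A7 mean of 17.1 ± 2.38 was 1.61 times the vehicle mean of 10.6 ± 1.12 (SD, n = 2 each), with a fitted log2 difference of 0.64 (SE 0.17) and of 0.50 without A7 replicate 1. NEAT1 has a short and a long isoform, of 3524 and 22743 nucleotides in the annotation, and the tables give 1 value for both, so the form that makes paraspeckles cannot be told apart from the short one. Relative to all tested genes, 91.7% had a lower log2 difference than MALAT1 and 97.9% a lower one than NEAT1.

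The protein partners of both RNAs showed no shared direction. Of 17 paraspeckle proteins tested, 8 had a positive and 9 a negative difference, with a median of -0.02 (0.18 after rescaling to equal sums, that is, every library to the same summed FPKM, 0.06 after quantile normalization). None of these lay higher in both A7 libraries (18.3% of all tested genes did) and 4 lay lower (18.6% of all did), among them the RNA-binding protein DAZAP1 (log2 difference -0.41). Of 13 nuclear speckle proteins, 8 were positive and 5 negative, with a median of 0.04 (0.26 after rescaling to equal sums, 0.13 after quantile normalization). Both A7 libraries lay above both vehicle libraries in 4 of the 13 and below in 1, beside 18.3% and 18.6% of all tested genes. Leaving out 1 library at a time moved both medians across 0. The splicing factor U2AF2 had a difference of 0.41 and SRSF5 one of 0.16, with both A7 libraries above both vehicle libraries, while SRSF7 had one of -0.24 with both below. No gene of either list passed limma's test at an adjusted p under 0.05 (lowest limma adjusted p 0.806), and none had an unadjusted p under 0.05.

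The 6 snoRNA hosts had a median log2 difference of -0.13, with 5 negative and 1 positive, beside a median of 0.00 over all 8952 tested genes, and this median was -0.01 after quantile normalization and 0.10 after rescaling to equal sums, a scaling that also moved the median of all genes to 0.17. The hosts did not separate the groups as a set. Their median deviation from each gene's own mean was 0.01 and 0.08 in the vehicle libraries, 0.07 in A7 replicate 1 and -0.25 in A7 replicate 2. A7 replicate 1 thus lay among the vehicle libraries, and A7 replicate 2 alone lay below. Without A7 replicate 2 the median difference of the hosts was 0.00, without vehicle replicate 2 it was -0.02, without A7 replicate 1 -0.27 and without vehicle replicate 1 -0.23.

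GAS5, named for its accumulation in growth-arrested cells, measured 194 and 251 scaled FPKM with vehicle and 227 and 173 with A7. The groups overlapped. The means were 222 ± 39.99 and 200.2 ± 38.5 (SD, n = 2 each), and the log2 difference was -0.15 (SE 0.20), smaller than its error. Its sign was positive in 4 of the 13 alternative settings. SNHG1, host of a cluster of box C/D snoRNAs, measured 18.0 and 17.8 with vehicle and 18.2 and 15.7 with A7. Its groups also overlapped, with a log2 difference of -0.08 (SE 0.15).

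SNHG5 measured 98.0 and 97.9 scaled FPKM with vehicle and 118 and 84.9 with A7. The A7 libraries thus lay on either side of the vehicle libraries, and the log2 difference was 0.03 (SE 0.18). SNHG8, the most abundant of the hosts, measured 482 and 575 with vehicle and 504 and 479 with A7, with means of 528 ± 66.0 and 491 ± 18.3 (SD, n = 2 each) and a log2 difference of -0.10 (SE 0.14). Its groups overlapped as well. SNHG6 measured 289 and 301 with vehicle and 288 and 226 with A7. Its groups did not overlap, but A7 replicate 1 lay below vehicle replicate 1 by less than 1 FPKM, and the log2 difference was -0.21 (SE 0.15). It was -0.38 without A7 replicate 1, -0.03 without A7 replicate 2 and 0.02 after rescaling to equal sums. SNHG6 shares exon sequence with MCMDC2 on the opposite strand, and no step that keeps the strand is named, so reads of both genes cannot be told apart. As whole gene spans, introns included, GAS5 also overlaps GAS5-AS1 and ZBTB37 on the opposite strand, SNHG7 overlaps FAM69B and MALAT1 overlaps AP000769.2. Whether those overlaps reach exons was not tested.

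SNHG7 had the widest difference among the hosts. It measured 10.4 and 4.57 scaled FPKM with vehicle and 4.29 and 3.11 with A7. Both A7 values lay below both vehicle values, yet vehicle replicate 2 lay closer to the A7 libraries than to vehicle replicate 1. The vehicle mean of 7.50 ± 4.14 was 2.03 times the A7 mean of 3.70 ± 0.835 (SD, n = 2 each), with a log2 difference of -0.77 (SE 0.36). Leaving out vehicle replicate 1 gave -0.26, leaving out vehicle replicate 2 gave -1.29, and leaving out A7 replicate 1 gave -0.96. Depending on which annotated transcript is counted, roughly 19 to 52 fragments stand behind vehicle replicate 1, 8 to 22 behind vehicle replicate 2, 14 to 39 behind A7 replicate 1 and 8 to 22 behind the last. The difference of SNHG7 thus rests on vehicle replicate 1.

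Of the small RNAs inside these genes, 25 are in the tables (24 snoRNAs and MIR675) and 23 are listed at 0 in all 4 libraries. SNORD22, in an intron of SNHG1, was listed at 139 scaled FPKM in vehicle replicate 1 and at 0 in the other libraries. SNORA24, in SNHG8, was listed at 96.2 in A7 replicate 2 and at 0 elsewhere. The small RNAs are therefore not compared between the groups.

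H19 was low. It measured 2.31 and 0.586 scaled FPKM with vehicle and 1.41 and 0.976 with A7. The A7 libraries lay between the vehicle libraries, with means of 1.45 ± 1.22 and 1.195 ± 0.310 (SD, n = 2 each) and a log2 difference of -0.07 (SE 0.38). At roughly 1 to 14 fragments a library, a difference of this size was not detectable. Of 14 imprinted genes and H19 partners in the tables only 4 reached the level needed for testing, 2 with a positive and 2 with a negative difference (median 0.03, which ran from -0.19 to 0.18 when 1 library was left out). PEG10, an imprinted gene derived from a retrotransposon, had a difference of -0.25 and CTCF, the insulator protein that binds between IGF2 and H19, one of 0.25. No gene of this list passed the test (lowest limma adjusted p 0.814) or had an unadjusted p under 0.05.

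LINC00173 measured 0.599 and 0.304 scaled FPKM with vehicle and 3.65 and 2.62 with A7. Both A7 libraries lay well above both vehicle libraries. The A7 mean of 3.13 ± 0.729 was 6.94 times the vehicle mean of 0.452 ± 0.208 (SD, n = 2 each), and the log2 difference was 1.51 (SE 0.25), a scale that understates the change of a gene this low. It was 1.33 without A7 replicate 1, and 99.6% of the tested genes had a lower difference. If the value in vehicle replicate 2 is 1 fragment, the values stand for about 2 and 1 fragments in the vehicle group, against 22 and 13 in the A7 group. That is 3 against 35, a ratio per depth of 7.05 with an exact 95% interval of 2.22 to 35.8 that covers counting error only and is no test of A7. LINC00173 reached the mean of 1 FPKM needed for testing only through its A7 libraries, so it had to differ to be among the tested genes, and the rule chose it for that difference.

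The fit over the whole table called 2 of 8952 genes (0.0223%) at a limma adjusted p under 0.05, 1 in each direction, and none of the 10 RNAs is among them. At an unadjusted p under 0.05 it gave 198 genes higher and 318 lower. In 3 of the 10 RNAs (MALAT1, NEAT1 and LINC00173) both A7 libraries lay above both vehicle libraries, a pattern that 18.3% of all tested genes showed. In 2 of the 10 (SNHG6 and SNHG7) both lay below, as in 18.6% of all tested genes. These counts are listed only for scale, since the values chose the genes. The plot of fitted differences sets the 10 beside the other noncoding hosts.

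**Figure D2:**
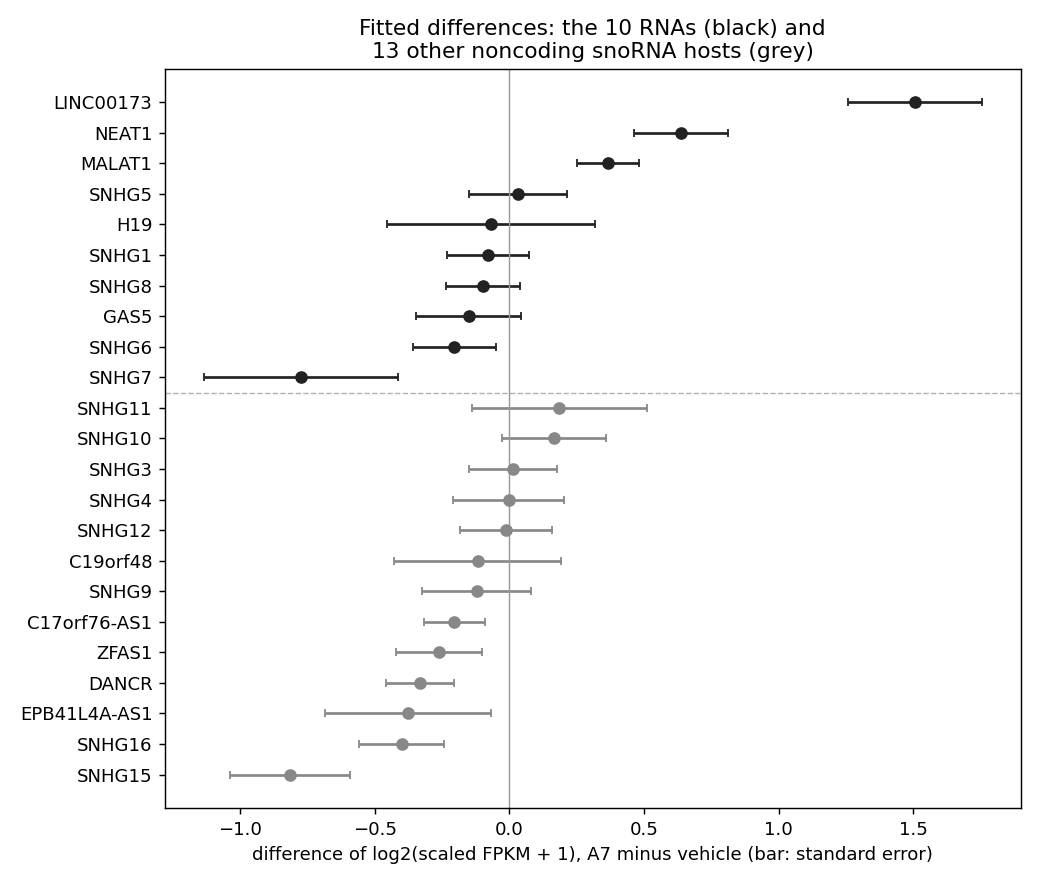
Fitted difference of log2(scaled FPKM + 1), A7 minus vehicle, with its standard error as a bar, for the 10 RNAs (black) and 13 other noncoding snoRNA hosts (grey), each block in order of its difference. LINC00173, NEAT1 and MALAT1 have differences of 1.51, 0.64 and 0.37, and SNHG15 has the lowest value of the other hosts, -0.81.

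Among 13 other noncoding snoRNA hosts, 10 had a negative and 3 a positive difference (median -0.12, and -0.05 after quantile normalization and 0.02 after rescaling to equal sums). None lay higher in both A7 libraries and 5 lay lower, beside 18.3% and 18.6% of all tested genes. Their median transcript length was 1031 nucleotides, and of all tested genes of 1000 to 2000 nucleotides 13.1% lay higher and 25.1% lower. The part of length in these counts was not tested. SNHG15 measured 17.4 and 22.7 scaled FPKM with vehicle and 12.9 and 9.13 with A7, a log2 difference of -0.81 (SE 0.22). SNHG16 measured 320 and 355 with vehicle and 227 and 286 with A7, a difference of -0.40 (SE 0.16). In both, all A7 values lay below all vehicle values, and the spread within each group was smaller than the distance between the means. No gene of the list passed the test (lowest limma adjusted p 0.806). An unadjusted p under 0.05 was found in 3 of the 13, beside 198 higher and 318 lower genes among all 8952. By library, the list's median deviation was 0.09 and 0.12 with vehicle, 0.10 in A7 replicate 1 and -0.18 in A7 replicate 2. Here too A7 replicate 2 alone lay low. Without it the median difference was 0.04, and without A7 replicate 1, vehicle replicate 1 or vehicle replicate 2 it was -0.25, -0.22 and -0.19.

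Protein-coding snoRNA hosts, largely ribosomal proteins and translation factors, had a negative difference in 42 of 48 tested genes (median -0.15, and 0.00 after quantile normalization and 0.08 after rescaling to equal sums). In 28 of the 48 both A7 libraries lay below both vehicle libraries and in 1, the elongation factor EEF2 (0.11), both lay above, beside 18.6% and 18.3% of all tested genes. The median transcript length of these hosts was 1987 nucleotides. Of all tested genes of 1000 to 2000 nucleotides, 25.1% lay lower and 13.1% higher. Among genes at a mean of 100 FPKM or more, the medians of the length classes ran from -0.18 to -0.10. The part of length and level in these counts was not tested. HSPA8, a constitutive heat shock chaperone, measured 1610 and 1976 with vehicle and 905 and 1283 with A7, a log2 difference of -0.73 (SE 0.20). The median deviation of the list was 0.06 and 0.12 with vehicle and -0.02 and -0.13 with A7, which separates the groups. No gene of the list passed the test (lowest limma adjusted p 0.806). An unadjusted p under 0.05 was found in 3 of the 48, beside 198 higher and 318 lower genes among all 8952.

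The proteins that package snoRNAs had a median difference of -0.24 (-0.07 after quantile normalization and -0.01 after rescaling to equal sums), with 9 of 12 negative. Without A7 replicate 2 it was -0.12. In 6 both A7 libraries lay below both vehicle libraries and in 2 above, beside 18.6% and 18.3% of all tested genes. Their median transcript length was 1943.5 nucleotides, and of all tested genes of 1000 to 2000 nucleotides 25.1% lay lower and 13.1% higher. The part of length was not tested here either. DKC1, the pseudouridine synthase of the H/ACA particle and itself a snoRNA host, measured 53.5 and 53.0 with vehicle and 35.8 and 42.1 with A7, a difference of -0.45 (SE 0.14). NOP56, a core box C/D protein, had a difference of -0.38 (SE 0.13). The other way lay GAR1, an H/ACA protein, at 0.39 and RUVBL1, an ATPase that helps assemble the particles, at 0.14. No gene of the list passed the test (lowest limma adjusted p 0.806). An unadjusted p under 0.05 was found in 3 of the 12, beside 198 higher and 318 lower genes among all 8952.

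Factors of nonsense-mediated decay, which degrades many host RNAs, had a positive difference in 9 of 12 tested genes (median 0.11, 0.22 without A7 replicate 2 and 0.29 after rescaling to equal sums). Both A7 libraries lay above both vehicle libraries in 5, among them the exonuclease XRN1 (0.41) and the decapping enzyme DCP2 (0.36), and below in 2, the exon junction proteins RBM8A (-0.33) and EIF4A3 (-0.27), beside 18.3% and 18.6% of all tested genes. The median transcript length of these factors was 4538.5 nucleotides. Of all tested genes of 4000 to 8000 nucleotides, 26.3% lay higher and 9.24% lower in both A7 libraries. The part of length in these counts was not tested. None of the 12 passed the test (lowest limma adjusted p 0.806) or had an unadjusted p under 0.05. Of 16 other long noncoding RNAs tested, 9 had a positive and 7 a negative difference (median 0.05, -0.02 without vehicle replicate 1 and 0.18 after rescaling to equal sums). LINC00467 (0.50) and LINC00657 (0.30), also called NORAD, lay higher in both A7 libraries, and LINC00665 (-0.68) and JPX (-0.59) lay lower. In all, 4 lay higher and 3 lower without overlap, beside 18.3% and 18.6% of all tested genes. None passed the test (lowest limma adjusted p 0.705). An unadjusted p under 0.05 was found in 4 of the 16, beside 198 higher and 318 lower genes among all 8952.

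**Figure D3:**
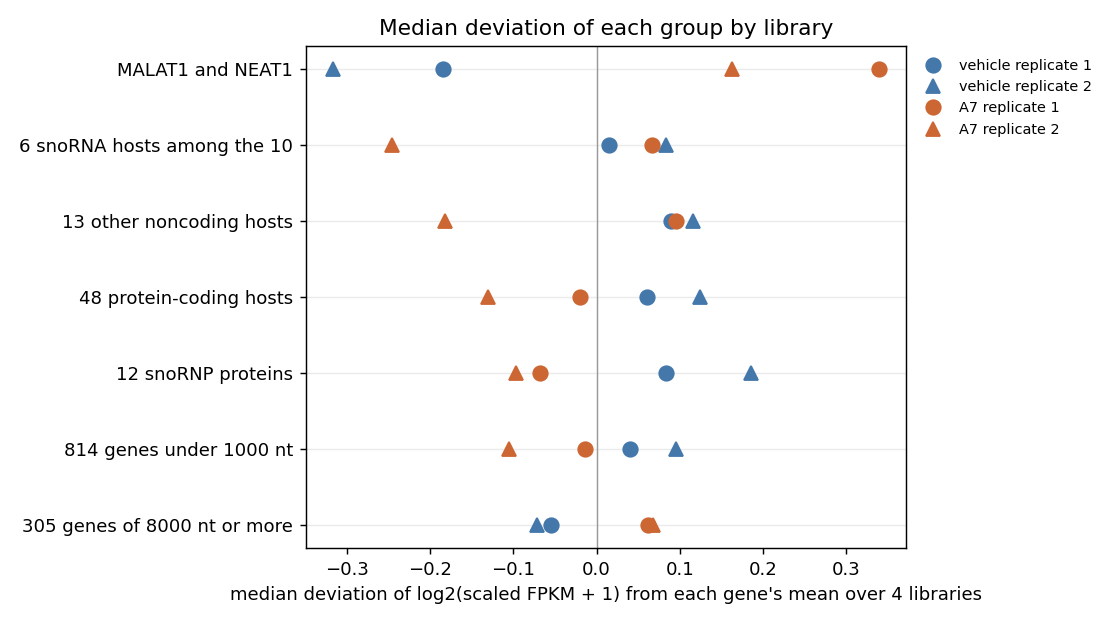
Median deviation of log2(scaled FPKM + 1) from each gene's own mean over 4 libraries (horizontal axis), by gene group (rows) and library (points). For the 6 hosts A7 replicate 2 alone lies low, at -0.25, while for MALAT1 and NEAT1 both A7 libraries lie above both vehicle libraries.

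Transcript length moved with the difference across the transcriptome. Lengths were found for 90.7% of the tested genes. The median log2 difference was -0.12 for 814 genes under 1000 nucleotides, -0.07 for 2109 genes of 1000 to 2000, 0.00 for 3159 genes of 2000 to 4000, 0.06 for 1732 genes of 4000 to 8000 and 0.13 for 305 genes of 8000 or more. After quantile normalization the shortest class was at 0.00 and the longest at 0.09, and after rescaling to equal sums they were at 0.09 and 0.27. In the longest class both A7 libraries lay above both vehicle libraries in 44.9% of the genes, and in the shortest class in 8.11%. Of the 10 RNAs, MALAT1, at 8708 nucleotides, and the long form of NEAT1 belong to the longest class, and GAS5, SNHG5, SNHG6 and SNHG8, of 327 to 723, to the shortest.

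Within their own length classes the members stood as follows. In the longest class, 94.4% of the other genes had a lower difference than MALAT1 and 99.3% a lower one than NEAT1, and if NEAT1 is placed by its short form, 99.0% of its class did. GAS5, SNHG5, SNHG6 and SNHG8 stood in the middle of the shortest class, with 43.1%, 68.6%, 35.3% and 52.6% of its other genes below them. SNHG7 stood low in each class its transcripts reach, with 0.412% to 6.88% of the genes below it. LINC00173 stood above 96.3% of the shortest class and 99.9% of the next. Its place carries no weight, since it was chosen for that difference and reached the tested genes only through its A7 libraries. The part that length plays in the differences of the 10 was not tested.

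The most abundant genes were also looked at separately. Among genes at a mean of 100 FPKM or more, the median difference was -0.18 for 264 genes under 1000 nucleotides, -0.16 for 226 of 1000 to 2000, -0.14 for 109 of 2000 to 4000 and -0.10 for 36 of 4000 or more. MALAT1, at 0.37, is one of those 36 abundant long genes. The differences of GAS5, SNHG6 and SNHG8, at -0.15, -0.21 and -0.10, lie near that of the short abundant genes, while that of SNHG5, also short and at a mean of 100.2 FPKM, is 0.03.

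**Figure D4:**
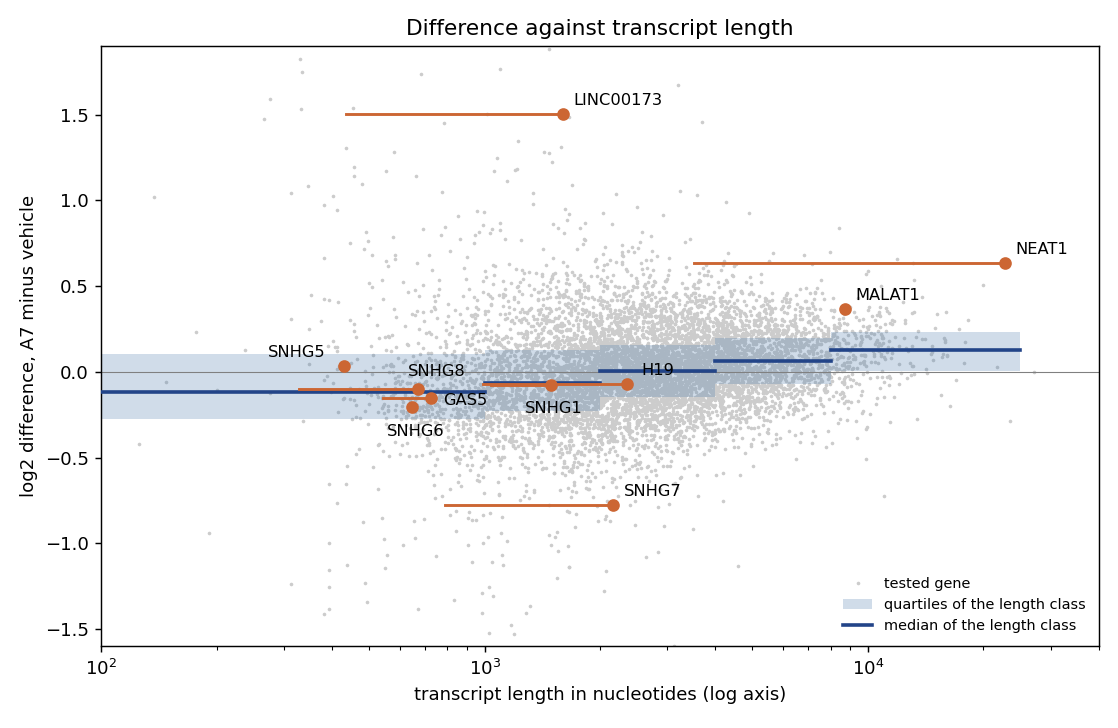
Log2 difference, A7 minus vehicle, against transcript length in nucleotides (log axis) for tested genes (grey points), with the median (blue line) and quartiles (blue band) of 5 length classes and the 10 RNAs in orange, each drawn from its shortest to its longest annotated transcript. Class medians run from -0.12 to 0.13, 51 tested genes lie beyond the vertical axis, and MALAT1, NEAT1, LINC00173 and SNHG7 lie outside the quartiles of every class they reach.

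For 4 of the RNAs the genes with the most similar profile over the 4 libraries were looked up, as the smallest Euclidean distance between centred log2 values among 3263 genes at a mean of 10 FPKM or more. Nearest to MALAT1 were CYB5R1, a cytochrome b5 reductase (distance 0.030), LOC642236 (0.038) and ZNF277, a zinc finger protein (0.049). Nearest to NEAT1 were S100A4, a calcium-binding protein (0.089), INSIG1, a sterol sensor of the endoplasmic reticulum (0.11), and EFHD1 (0.13). GAS5 lay nearest to APOO (0.040), SSSCA1 (0.069) and the ribosomal protein gene RPS18 (0.075). SNHG1 lay nearest to HLA-B (0.017), KCTD3 (0.019) and DSCAM-AS1 (0.025), a long noncoding RNA of luminal breast cancer. A profile of 4 libraries has few points, and the distances are a description.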

How the data were processed

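For 4 LCC9 libraries, cDNA came from total RNA by a SMARTer PCR kit, per the labels' protocols. The values are FPKM by gene symbol as deposited, 1 file for each library, per the file headers. The submitters' processing notes name CASAVA 1.8.2, TopHat, Cufflinks 2.2.1 and GRCh37, with no roles. Of 23619 lines, 14 with a number for a symbol were left out. FPKM were scaled by the median ratio to the mean library (factors 0.990 to 1.02) and analysed as log2(scaled FPKM + 1); a pseudocount of 1 understates changes of low genes. Genes at a mean of 1 FPKM or more (8952) were tested in limma 3.58.1 (R 4.3.3, trend, Benjamini-Hochberg), with group as the only term; the script was tested on simulated data. The p-values measure only the spread between these libraries.

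The 10 members and the gene lists were chosen with earlier results of these data known. Of each list, the 2 genes with the largest and the 2 with the smallest difference are named if the groups do not overlap, and 3 nearest profiles for each of 4 members; DCN was named after its value was seen, and 1 gene that the rule selects is not reported here. Lengths, overlaps and copies (blastn 2.17.0, identity of 95% over 50%) come from GENCODE 29, of another build than the tables, so gene positions are not given. Depth was estimated from the steps between low values.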

Additional observations from a re-analysis of the deposited data

How the results depend on the processing

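Under 13 alternatives (scaling, pseudocount, filter, trend, replicate block, leaving out a library) none of the 10 RNAs was called. MALAT1 (0.33 to 0.59), NEAT1 (0.50 to 0.83) and SNHG7 (-1.29 to -0.26) kept their sign in all 13, and LINC00173 (1.33 to 2.82) in the 12 that tested it. The sign turned in 4 for GAS5, 3 of 13 for SNHG8, 3 of 11 for H19, 2 for SNHG1 and 1 each for SNHG5 and SNHG6. The filter, trend and replicate block settings leave a fitted difference unchanged. Where the groups do not overlap, as in MALAT1, NEAT1, SNHG7 and LINC00173, leaving out 1 library can hardly turn the sign. Their kept signs are therefore only a description. The median of the 10, -0.07, was 0.13 after rescaling every library to the same summed FPKM. The 23 list genes selected by the naming rule kept their direction and stayed uncalled in all 293 alternative values. The rule took only genes whose groups do not overlap, so the kept direction was largely fixed in advance.

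Over all genes, 1 was called in each direction. The count of higher genes was 0 with no filter, with no mean-variance trend and with the replicate block, and 0 to 10 when 1 library was left out. The count of lower genes was 0 with pseudocounts of 0.1 and 0.01, with no filter and with the replicate block, 2 with that rescaling or quantile normalization, 3 when only genes at a mean of 5 FPKM were kept, and 0 to 7 when 1 library was left out. Same-numbered libraries share only a number: their deviations correlated at 0.0906, so the replicate block is an alternative only. Depth limits H19, SNHG7 and LINC00173 most.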
